A study of Sus scrofa with 8 samples.

Results

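The genes followed here process and load peptides for MHC class I molecules, and there were 10 of them in the olfactory epithelium (OE) of pigs: B2M, TAP1, TAP2, TAPBP, PSMB8, PSMB9, PSMB10, NLRC5, PSME1 and PSME2. They were taken by their Ensembl gene name, with no threshold on a measured value, and all 10 were found among the 22516 genes of the deposited data and among the 21318 genes that had at least 1 count over the libraries and were tested. RNA-seq had been made from 4 sows in estrus, 8 months old, offspring of a Landrace father and a Rongchang mother. They formed 2 groups of 2 sows. In the androstenone group Boarmate, a spray whose main ingredient is the boar pheromone androstenone, was applied to the nasal cavity, and in the control group nothing was applied, so that androstenone, the other contents of the spray and the spraying itself cannot be told apart. OE was taken 30 min later from the left and the right side of each sow, which gave 4 libraries per group and 8 in all. The labels do not say which libraries came from the same sow, so each p-value below measures the spread between libraries, with only 2 animals behind each group of 4.

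MHC class I molecules show peptides from inside a cell to CD8 T cells. The peptides are cut from proteins by the proteasome, of which the immunoproteasome is a form with exchanged catalytic subunits, are pumped into the endoplasmic reticulum by the TAP transporter, and are loaded with the help of tapasin onto a heavy chain paired with the light chain B2M. Nearly every nucleated cell carries some of this machinery, and interferons are known to raise the transcription of its genes in epithelial and immune cells alike.

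In the RefSeq annotation of Sscrofa11.1, 4 of the genes lie side by side in the MHC class II region of chromosome 7 within 32424 bases: TAP2 at chr7:25045085-25056915, PSMB8 at chr7:25058456-25061666, TAP1 at chr7:25062772-25071989 and PSMB9 at chr7:25072133-25077508. TAPBP lies on the same chromosome at chr7:29663491-29673453. PSME2 at chr7:75154570-75157871 and PSME1 at chr7:75161830-75164531 form a second pair of neighbours, which spans 9962 bases. On chromosome 6 lie PSMB10 at chr6:28544910-28547609 and NLRC5 at chr6:18933179-19036288. B2M has 2 RefSeq loci, at chr1:126837721-126844043 and chr1:126865767-126878501, but a single row in the deposited data. Whether that row holds the reads of 1 locus or of both was not tested, and the level of B2M is uncertain to that extent. The 11 pig class I heavy chain symbols looked for (SLA-1 and its relatives) matched no row by name and are not analysed here.

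The deposited estimated counts summed to 4177968 in control 1 and to between 81579983 and 100685797 in the other 7 libraries. The study's sequencing summary does not list control 1 as a small library, so the low sum belongs to its deposited count column and was not traced further. The genes studied were well above what depth limits, since the smallest count of any of them in any library was 334, for PSMB10 in control 1. Control 4 stood apart by its bone and cartilage transcripts: 10 markers summed to 27524 TPM (a level scaled for transcript length and library total) there and to between 212 and 1075 TPM in the other 7 libraries. The sum hides that control 2 was also high in some of them, with ACAN at 99.7, ALPL at 122 and SP7 at 48.4 TPM. In the libraries other than controls 2 and 4 these did not exceed 4.13, 51.8 and 5.21 TPM. BGLAP, IBSP, SPP1 and DMP1 in control 2 lay within the range of those libraries. Among the mature olfactory neuron markers, OMP and CNGB1 matched no row, RTP1 did not exceed 0.038 TPM in any library and was 0 in control 1, GFY was also 0 in control 1, and GNG13 did not exceed 0.493 TPM. ADCY3, the adenylate cyclase of olfactory cilia, ranged from 6.25 to 15.0 TPM. The channel genes CNGA2 and ANO2 ranged from 0.279 to 5.01 and from 3.18 to 50.4 TPM, and STOML3 from 34.9 to 190 TPM. Of the 9 markers tested, RTP1, GFY, GNG13 and CNGA4 thus stayed below 1 TPM in each library, and ADCY3, ANO2 and STOML3 were above it in each. Counts and medians of the gene lists are also given below without control 1, control 4 or both, though not every one that moved.

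The genes covered a wide range of levels. Mean TPM over the 8 libraries was 11531 for B2M, followed by 378 for PSME1, 295 for PSMB9, 215 for PSME2, 210 for PSMB8, 153 for TAP1, 139 for TAPBP, 107 for PSMB10, 75.0 for TAP2 and 20.9 for NLRC5. Not every step of that order held in each library: PSME1 was above PSMB9 in 6 of 8 libraries, PSMB9 above PSME2 in 7, PSME2 above PSMB8 in 4 and TAP1 above TAPBP in 4. The remaining steps held in 8 of 8.

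All 10 genes were higher on average in the androstenone group, by 1.61-fold (PSME1) to 2.35-fold (PSMB9). In 8 of them every androstenone library lay above every control library, while the groups overlapped for B2M and PSMB8. In TPM in place of CPM the number was 7, since PSME2 was at 227 TPM in control 3 and at 222 TPM in androstenone 4. Over all genes tested, 10270 of 21318 were higher in the androstenone group, and 3.89% had every androstenone library above every control library. The median log2 fold change of the 10 genes was 0.89, beside -0.02 over all genes tested. At the study's cutoff, an unadjusted p below 0.05 and a log2 fold change of 1 or more in size, TAP1, PSMB9 and TAPBP passed, 3 of 10, where 2.04% of all genes tested passed with a higher level in the androstenone group. At an unadjusted p below 0.05 alone 8 of 10 passed, against 5.09% of all genes tested, and the 2 that did not were again B2M and PSMB8. Once p was adjusted by Benjamini-Hochberg across every tested gene, edgeR's quasi-likelihood test called none of the 10, and 0% of all genes, at 0.05, with adjusted p from 0.378 to 0.473. DESeq2 called 7 of the 10 after adjustment (adjusted p from 0.00252 for TAPBP to 0.0450 for PSMB9) against 1.45% of all genes tested with a higher level, and left out B2M, PSMB8 and NLRC5 (adjusted p 0.244, 0.380 and 0.105). The other edgeR tests called none of the 10 after adjustment, with adjusted p from 0.0538 to 0.489 in the likelihood ratio test and from 0.0681 to 0.579 in the exact test, against 0.399% and 0.324% of all genes tested. In bulk RNA, fewer cells of a type and less RNA per cell cannot be told apart, and this holds for every difference given here.

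**Figure D1:**
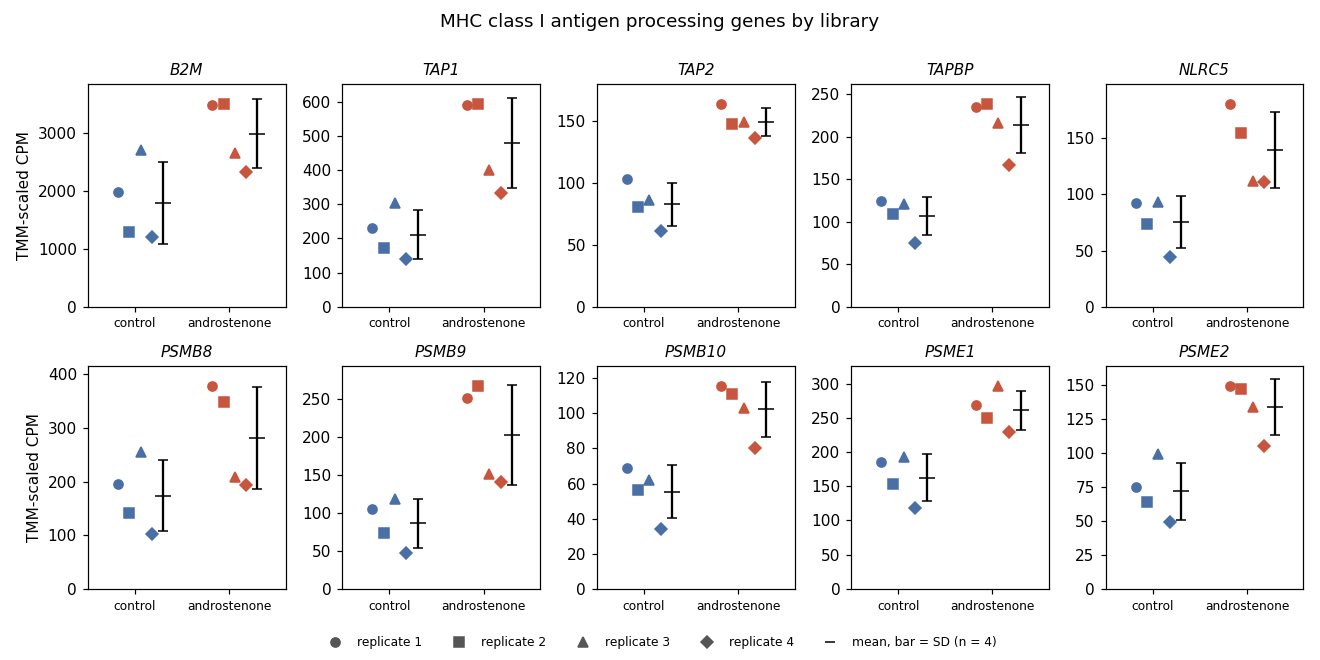
TMM-scaled CPM (linear axes from 0, a scale per gene) of the 10 class I processing genes in each of the 4 control and 4 androstenone libraries, with a point per library shaped by replicate number and the group mean with its SD beside the points. In 8 genes the points of the groups do not overlap, in B2M and PSMB8 they do, and control 4 is the lowest point of each gene.

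The transporter is a dimer of TAP1 and TAP2, both of which are needed to move peptide. TAP1 stood at 230, 172, 303 and 140 CPM (counts scaled to library total with TMM factors) in control 1 to 4 and at 592, 594, 401 and 333 CPM in androstenone 1 to 4. Its lowest androstenone library was only a little above its highest control, and its mean went from 211 ± 72.0 to 480 ± 133 CPM (SD, n = 4 each). The log2 fold change was 1.19 with an SE of 0.31 (edgeR quasi-likelihood test, unadjusted p = 0.00457, adjusted p = 0.393). TAP2 stood at 103, 80.4, 86.3 and 61.0 CPM in the controls and at 164, 148, 149 and 137 CPM in the androstenone libraries. Of the 10 genes it varied least among the androstenone libraries, whose SD was 11.2 around a mean of 149 CPM, and its groups were clearly apart. Its log2 fold change of 0.85 with an SE of 0.19 had a lower unadjusted p than that of TAP1, at 0.00154 (edgeR, adjusted p = 0.378), but stayed under the fold limit of the cutoff.

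Tapasin, the product of TAPBP, bridges the transporter and the empty class I molecule. TAPBP was at 124, 109, 121 and 75.0 CPM in the controls and at 235, 238, 216 and 167 CPM in the androstenone libraries, so that the groups did not overlap. The means were 107 ± 22.4 and 214 ± 33.0 CPM (SD, n = 4 each). It had the lowest unadjusted p of the 10 genes, 0.00134 (edgeR, adjusted p = 0.378), but its log2 fold change of 1.00 with an SE of 0.21 lay at the fold limit and dropped under it in 4 of the leave-outs of a single library, among them control 4 (0.86).

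B2M is the light chain that class I heavy chains and several class I-like proteins share. It was at 1972, 1282, 2710 and 1200.5 CPM in the controls and at 3488, 3497, 2650 and 2323 CPM in the androstenone libraries. Control 3 was above androstenone 3 and androstenone 4, and the groups therefore overlapped. The means of 1791 ± 704 and 2989 ± 596 CPM (SD, n = 4 each) differed by a log2 fold change of 0.74 with an SE of 0.33, which did not pass (edgeR, unadjusted p = 0.055, adjusted p = 0.448). Without control 3 the log2 fold change was 1.01 and the unadjusted p 0.0108.

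The immunoproteasome subunits PSMB8, PSMB9 and PSMB10 take the places of the constitutive catalytic subunits PSMB5, PSMB6 and PSMB7. PSMB9 stood at 106, 73.1, 119 and 47.1 CPM in the controls and at 252, 267, 152 and 140 CPM in the androstenone libraries. It had the widest span of the 10 genes, 5.67-fold between control 4 and androstenone 2, and its groups did not overlap. The log2 fold change was 1.23 with an SE of 0.35 (edgeR, unadjusted p = 0.00668, adjusted p = 0.393). PSMB8, which lies between TAP2 and TAP1 on the chromosome, stood at 196, 141, 254 and 102 CPM in the controls and at 377, 349, 208 and 193 CPM in the androstenone libraries. Androstenone 4 was below both control 1 and control 3, and androstenone 3 was below control 3. Its log2 fold change of 0.70 with an SE of 0.35 did not pass (edgeR, unadjusted p = 0.0754, adjusted p = 0.473). PSMB10, encoded on another chromosome, was at 68.6, 56.5, 62.2 and 34.0 CPM in the controls and at 115, 111, 103 and 80.0 CPM in the androstenone libraries. These groups were apart, with a log2 fold change of 0.89 and an SE of 0.24 (edgeR, unadjusted p = 0.00521, adjusted p = 0.393).

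PSME1 and PSME2 encode the subunits of PA28, a ring that caps the proteasome and opens it. PSME1 was at 186, 153, 193 and 118 CPM in the controls and at 269, 250, 296 and 230 CPM in the androstenone libraries. It was the only one of the 10 genes whose highest library was androstenone 3, and it had the smallest log2 fold change of them, 0.69 with an SE of 0.20 (edgeR, unadjusted p = 0.00872, adjusted p = 0.393). PSME2 was at 74.6, 63.4, 99.0 and 48.8 CPM in the controls and at 149, 147, 134 and 105 CPM in the androstenone libraries. Control 3 was close under androstenone 4 in CPM, and the log2 fold change was 0.90 with an SE of 0.24 (edgeR, unadjusted p = 0.00483, adjusted p = 0.393).

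NLRC5 is the transactivator that enters the nucleus and drives the promoters of class I genes. It was the least abundant of the 10 per transcript length, at 7.38 to 19.9 TPM in the controls and 21.0 to 32.4 TPM in the androstenone libraries. In CPM it was at 92.0, 73.2, 93.6 and 44.0 in the controls and at 180, 155, 112 and 111 in the androstenone libraries. All androstenone values were above the controls, and the log2 fold change was 0.89 with an SE of 0.28 (edgeR, unadjusted p = 0.0124, adjusted p = 0.405).

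The 10 genes moved together from library to library. Over the 45 pairs of genes, Pearson's r of log2 CPM over the 8 libraries was between 0.80 and 0.99 with a median of 0.96, and after subtracting the group means it was still between 0.67 and 0.99 with a median of 0.87. These values describe 8 points that share their libraries, scaling and, for some, their sow. Control 4 was the lowest library for 10 of 10 genes. Androstenone 1 was the highest for 5 and androstenone 2 for 4, and androstenone 1 was among the highest 2 for 10 of 10. Among the controls, control 3 was the highest for all but TAP2, TAPBP and PSMB10, which were highest in control 1.

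Ratios of 2 TPM values within a library were compared, since depth and scaling cancel in them. The exact permutation test over the 70 assignments of 8 libraries to groups cannot give a two-sided p below 0.0286, and 11 ratios were tested, 8 of them chosen after the values had been seen. These assignments move single libraries, although treatment was given to whole sows, so the p-values treat the libraries as independent. None passed after adjustment over the 11. The planned ones were PSMB10 to PSMB7, TAP1 to TAP2 and PSME1 to PSME2. PSMB9 to PSMB8 and TAP1 to PSMB8 were among those chosen later. They set the genes with the largest log2 fold changes against PSMB8, which had 0.70, so their separation follows in part from that choice. Neither the permutation p-values nor the values with a library left out correct for it. PSMB9 to PSMB8 was 1.20, 1.15, 1.04 and 1.03 in the controls and 1.49, 1.71, 1.62 and 1.62 in the androstenone libraries. The libraries of the groups did not overlap, with means of 1.11 ± 0.0835 and 1.61 ± 0.0901 (SD, n = 4 libraries from 2 sows each), a log2 difference of 0.54 and an exact permutation p of 0.0286 (adjusted over the 11 ratios, 0.157). TAP1 to PSMB8 was 0.566, 0.587, 0.577 and 0.663 in the controls and 0.758, 0.823, 0.931 and 0.836 in the androstenone libraries, with a log2 difference of 0.48 and the same exact p and adjusted p. In both ratios the difference between groups was smaller for PSMB8 than for the neighbour it was set against, and leaving out any 1 library left the log2 differences between 0.51 and 0.58 and between 0.43 and 0.53. PSMB9 to TAP1, by contrast, differed by a log2 value of only 0.058 (exact permutation p = 0.686).

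**Figure D2:**
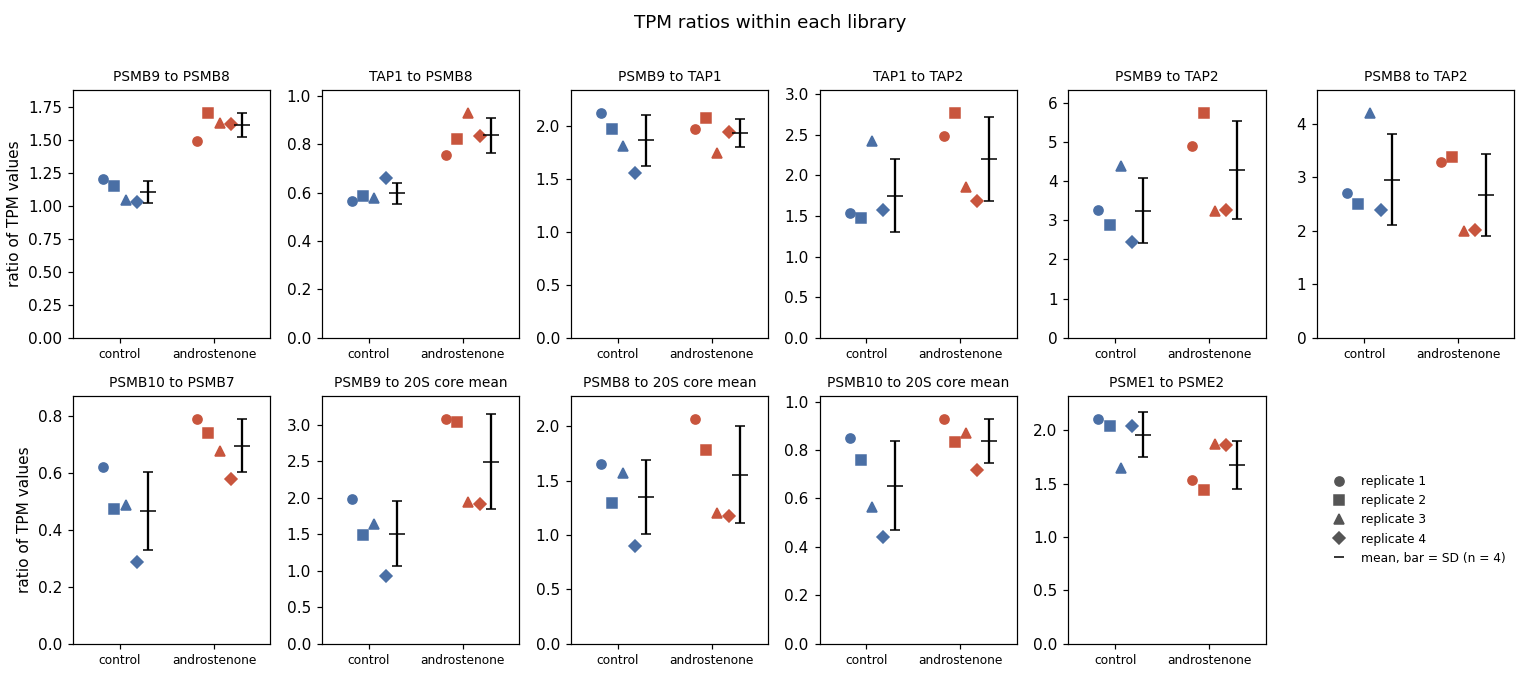
Ratios of TPM values within each library for pairs of class I processing genes and for immunoproteasome subunits against constitutive subunits, with a point per library (control and androstenone, 4 each), linear axes from 0, and the group mean with its SD beside the points. PSMB9 to PSMB8 and TAP1 to PSMB8, both chosen after the values were seen, separate the groups, at means of 1.11 and 1.61 and of 0.598 and 0.837, while PSMB9 to TAP1 and TAP1 to TAP2 overlap.

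Other ratios overlapped between the groups. PSMB10 to PSMB7, the immunoproteasome subunit against the constitutive subunit whose place it takes, was 0.467 ± 0.137 in the controls and 0.696 ± 0.0917 in the androstenone group (SD, n = 4 each, log2 difference 0.62, exact permutation p = 0.0571). PSMB5 and PSMB6 matched no row by name, so PSMB8 and PSMB9 were set against the mean log2 TPM of the 12 constitutive 20S subunits found. On that scale the log2 differences were 0.20 for PSMB8, 0.74 for PSMB9 and 0.40 for PSMB10 (exact permutation p = 0.514, 0.0857 and 0.171). The value for PSMB8 dropped to 0.012 without control 4, to 0.046 without androstenone 1 and to 0.12 without androstenone 2, and was up to 0.32 without other single libraries. The value for PSMB10 was 0.22 without control 4. TAP1 to TAP2 differed by 0.33 and PSME1 to PSME2 by -0.23 on the log2 scale (exact permutation p = 0.171 each), and the former was 0.21 without androstenone 2 and 0.50 without control 3. PSMB8 to TAP2 and PSMB9 to TAP2 differed by -0.16 and 0.39 (exact permutation p = 0.629 and 0.200). The first of these was 0.028 without control 3, -0.030 without androstenone 3 and -0.035 without androstenone 4, and the second was 0.23 without androstenone 2.

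The other genes of the pathway and the lists below were counted in the same edgeR fit, so the shares over all genes tested given above are their background. Those shares are from the fit on all libraries. For the fits without control 1, control 4 or both, no share at an unadjusted p below 0.05 is given here. Of the 12 constitutive 20S proteasome subunits tested, 12 were higher in the androstenone group, none passed the cutoff and 7 had an unadjusted p below 0.05, with a median log2 fold change of 0.49. PSMB4, the most abundant of them, had a log2 fold change of 0.59 with an SE of 0.16 (unadjusted p = 0.00617, adjusted p = 0.393), while the next, PSMA7 and PSMA6, had 0.26 and 0.52 and did not pass (adjusted p = 0.558 and 0.460). PSMB7 had 0.30 (adjusted p = 0.436). The count of 7 fell to 5 without control 1, to 5 without control 4 and to 1 without both, and the median to 0.42, 0.43 and 0.27. Among 6 proteasome assembly factors and other regulators 1 had an unadjusted p below 0.05, the maturation protein POMP, chosen here after its values were seen, with a log2 fold change of 0.42 (adjusted p = 0.416). Its unadjusted p in edgeR was 0.0509 without control 1, 0.0573 without control 4 and 0.153 without both, with adjusted p of 0.542, 0.509 and 0.797. PSME3, which forms a nuclear activator ring related to PA28, had 0.32 (adjusted p = 0.460) and the assembly chaperone PSMG3 had 0.30 (adjusted p = 0.505).

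Peptide trimming and loading factors gave 1 of 9 past the cutoff. This was ERAP2, an aminopeptidase of the endoplasmic reticulum that trims peptides before loading. ERAP2 was at 23.2, 18.2, 18.3 and 7.54 TPM in the controls and at 42.2, 39.9, 23.4 and 29.1 TPM in the androstenone libraries. Androstenone 3 was barely above control 1, and the log2 fold change was 1.16 with an SE of 0.31 (edgeR, unadjusted p = 0.00478, adjusted p = 0.393). Without control 4 its log2 fold change was 0.96, under the limit, so that 0 of 9 passed the cutoff, while without control 1 or without both it passed at 1.33 and 1.04. ERAP1, the related enzyme, was the other gene of the list with an unadjusted p below 0.05 and was named after its values were seen (log2 fold change 0.52, adjusted p = 0.421). Its unadjusted p was 0.0875 without control 4 and 0.144 without both controls (edgeR, adjusted p = 0.539 and 0.790). The general chaperones of the endoplasmic reticulum did not pass: the log2 fold change was -0.02 for CALR, 0.42 for PDIA3 and 0.18 for CANX (adjusted p = 0.984, 0.537 and 0.750). Class I-like proteins that pair with B2M gave 0 of 5 at an unadjusted p below 0.05 in edgeR, with a median log2 fold change of -0.09. That median was 0.17 without control 4 and 0.25 without controls 1 and 4. FCGRT, the neonatal Fc receptor, had -0.31, the iron regulator HFE had 0.37, and MR1, which presents vitamin metabolites, had -0.09 (adjusted p = 0.756, 0.654 and 0.951).

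**Figure D3:**
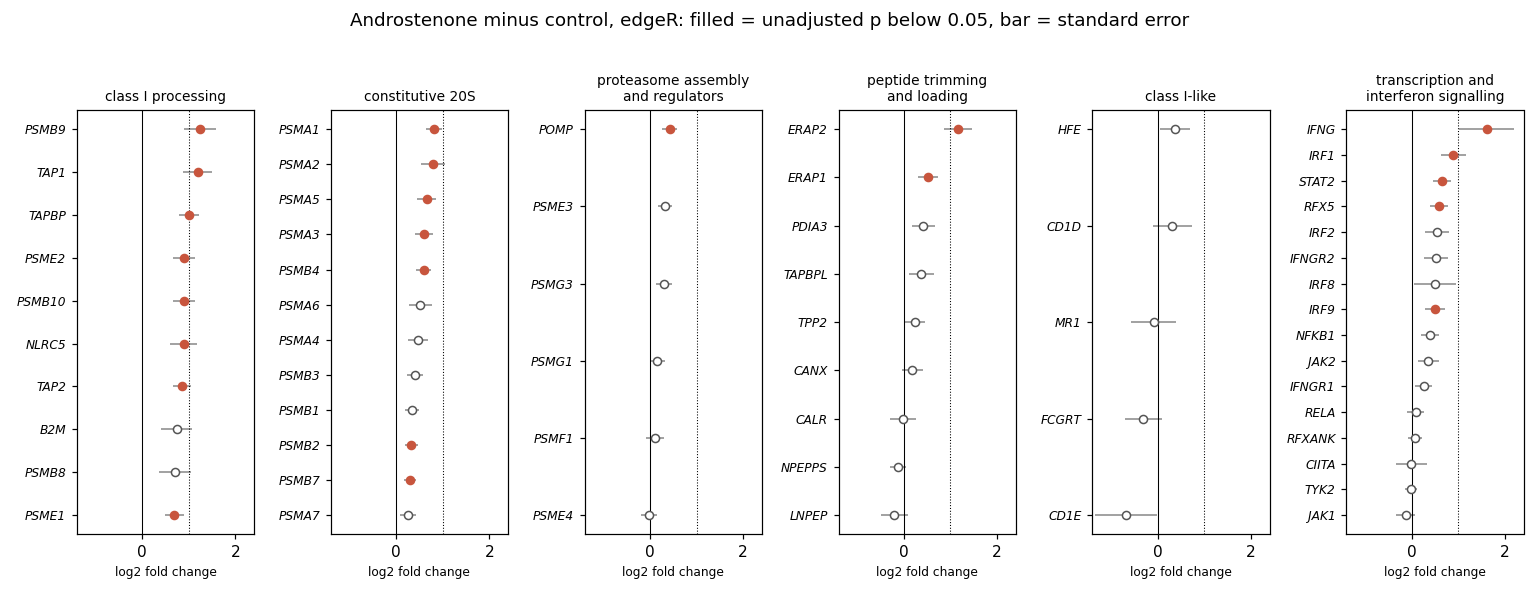
Log2 fold change, androstenone against control, with its SE from the edgeR fit on 8 libraries, for the 10 class I processing genes and for other genes of the pathway grouped by role. Filled points have an unadjusted p below 0.05, and the dotted line marks a log2 fold change of 1. The 10 genes lie between 0.69 and 1.23, the constitutive 20S subunits between 0.26 and 0.82, and the class I-like proteins that pair with B2M between -0.67 and 0.37.

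Of 17 factors that drive class I transcription, 1 passed the cutoff and 6 had an unadjusted p below 0.05. IFNG, the interferon made by T and NK cells, passed with a log2 fold change of 1.61 and an SE of 0.59 (edgeR, unadjusted p = 0.0246, adjusted p = 0.416). It was at 5.99, 2.47, 1.81 and 0.606 TPM in the controls and at 8.99, 7.08, 4.04 and 5.01 TPM in the androstenone libraries. Control 1, the library with the fewest deposited counts, was above androstenone 3 and 4, so that the groups overlapped. IFNG was near the counting limit, with means of 0.854 CPM in the controls and 2.25 CPM in the androstenone libraries, where 3 counts in control 1 make 0.718 CPM. Its log2 fold change was 2.10 without control 1, 1.26 without control 4 and 1.72 without both, past the cutoff in each. IRF1, a transcription factor induced by interferon gamma, was at 129, 88.1, 120 and 46.3 TPM in the controls and at 183, 166, 158 and 131 TPM in the androstenone libraries, with a log2 fold change of 0.89 (adjusted p = 0.401). The receptor chain IFNGR2 had 0.53 (adjusted p = 0.465). CIITA, the class II counterpart of NLRC5, named after its values were seen, had -0.0038 (adjusted p = 0.998). The count of 6 was 7 without control 1, 5 without control 4 and 2 without both.

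Interferon-stimulated genes outside the class I pathway were higher in 25 of 25 tested, with 16 past the cutoff and a median log2 fold change of 1.17. The 3 most abundant were the ubiquitin-like modifier ISG15 with a log2 fold change of 1.17 and an SE of 0.25, the tryptophan-tRNA ligase WARS1 with 1.56 and 0.49, and the antiviral synthetase OAS1 with 1.68 and 0.42 (edgeR, adjusted p = 0.378, 0.405 and 0.393). CXCL11, a chemokine that attracts T cells, had the highest value of the list at 2.12 with an SE of 0.66, and its groups overlapped (adjusted p = 0.403). The other genes past the cutoff were MX1, MX2, OAS2, OASL, RSAD2, IRF7, RIGI, HERC5, CMPK2, XAF1, GBP1 and CXCL10, at log2 fold changes from 1.04 (XAF1) to 1.95 (OASL). The count of 16 was 15 without control 1, 12 without control 4 and 7 without both, and the median was 1.20, 1.04 and 0.92. The sum of the list was 1008, 766, 1370 and 479 TPM in the controls and 2496, 2391, 1531 and 1541 TPM in the androstenone libraries.

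Markers of other cells varied between libraries in ways that cut across the groups. Respiratory ciliated cell markers (11 tested, 0 with an unadjusted p below 0.05 in edgeR, median log2 fold change 0.25) summed to 840, 395, 1884 and 318 TPM in the controls and to 1355, 1554, 460 and 409 TPM in the androstenone libraries. Control 3, androstenone 1 and androstenone 2, which were high in most of the 10 class I processing genes within their groups, were thus also the 3 highest in ciliated markers, of which FOXJ1, RSPH1 and RSPH4A were the most abundant (adjusted p = 0.606, 0.982 and 0.899). Without control 4 the median of the ciliated list was 0.014, and without controls 1 and 4 it was -0.23. Endothelial markers (5 tested, 0 with an unadjusted p below 0.05, median log2 fold change -0.33, and 0.38 without control 4) ran the other way in those 3 libraries, which had 22.5 to 35.2 TPM against 93.1 to 168 TPM in the other 5. PECAM1, CDH5 and CLDN5 led that list (adjusted p = 0.983, 0.999 and 0.886). The 9 olfactory neuron markers tested summed to 80.2 to 215 TPM in the controls and 94.8 to 186 TPM in the androstenone group, led by STOML3, ANO2 and ADCY3 (adjusted p = 0.811, 0.982 and 0.821), with 0 at an unadjusted p below 0.05 and a median log2 fold change of -0.08, which was 0.043 without control 4. Most of the sum was STOML3 and ANO2, while RTP1, GFY, GNG13 and CNGA4 did not exceed 0.699 TPM. STOML3 was highest (155 to 190 TPM) and ANO2 lowest (3.18 to 8.24 TPM) in control 3, androstenone 1 and androstenone 2. Whether the sum measures olfactory neurons was not tested.

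Leukocyte markers, which cover the cells richest in class I machinery, gave 0 of 28 past the cutoff, 1 with an unadjusted p below 0.05 and a median log2 fold change of 0.27. They summed to 12722, 8272, 3982 and 2342 TPM in the controls and to 10324, 6836, 11269 and 14483 TPM in the androstenone libraries. Most of that sum was JCHAIN, the joining chain of secreted antibodies (adjusted p = 0.548). MZB1, another plasma cell gene, was the 1 with an unadjusted p below 0.05 (log2 fold change 0.93, adjusted p = 0.424), and the complement gene C1QC had 0.55 (adjusted p = 0.669). Without control 1 the leukocyte list had 3 of 28 past the cutoff (CD8A, JCHAIN and MZB1), 5 with an unadjusted p below 0.05 and a median of 0.48. Without control 4 it had 1 past the cutoff, the macrophage gene CD163, and 2 with an unadjusted p below 0.05, and without both it had 2 (JCHAIN and CD163) and 4. The median of the list was 0.18 without control 4 and 0.34 without both. CD8A and CD163 were named after their values were seen. Androstenone 2, with one of the highest levels of the 10 genes, had a lower leukocyte marker sum than control 1 and control 2. Control 4, lowest in the 10 genes, also had the lowest sum. Single markers differed: PTPRC and CD3E were lowest in control 4 (28.4 and 11.9 TPM), while CD68 and CSF1R were highest there (281 and 120 TPM). These single markers were named after their values were seen. In the bone and cartilage list 9 of 10 markers passed the cutoff with a lower level in the androstenone group, SPP1, BGLAP and IBSP being the most abundant (log2 fold change -3.31, -4.95 and -4.53, adjusted p = 0.440, 0.416 and 0.436). The others were ALPL, RUNX2, SP7, DMP1, ACAN and COL9A1, at log2 fold changes from -5.60 (ACAN) to -1.53 (RUNX2). Without control 4, 3 of 10 passed, namely SP7, ACAN and COL9A1 (log2 fold change -3.17, -4.28 and -2.54). Over all genes tested, 934 of 21318 passed the cutoff with a lower level in the fit on all libraries. The part of ciliated, endothelial, leukocyte and bone transcripts in the difference of the 10 genes was not tested.

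**Figure D4:**
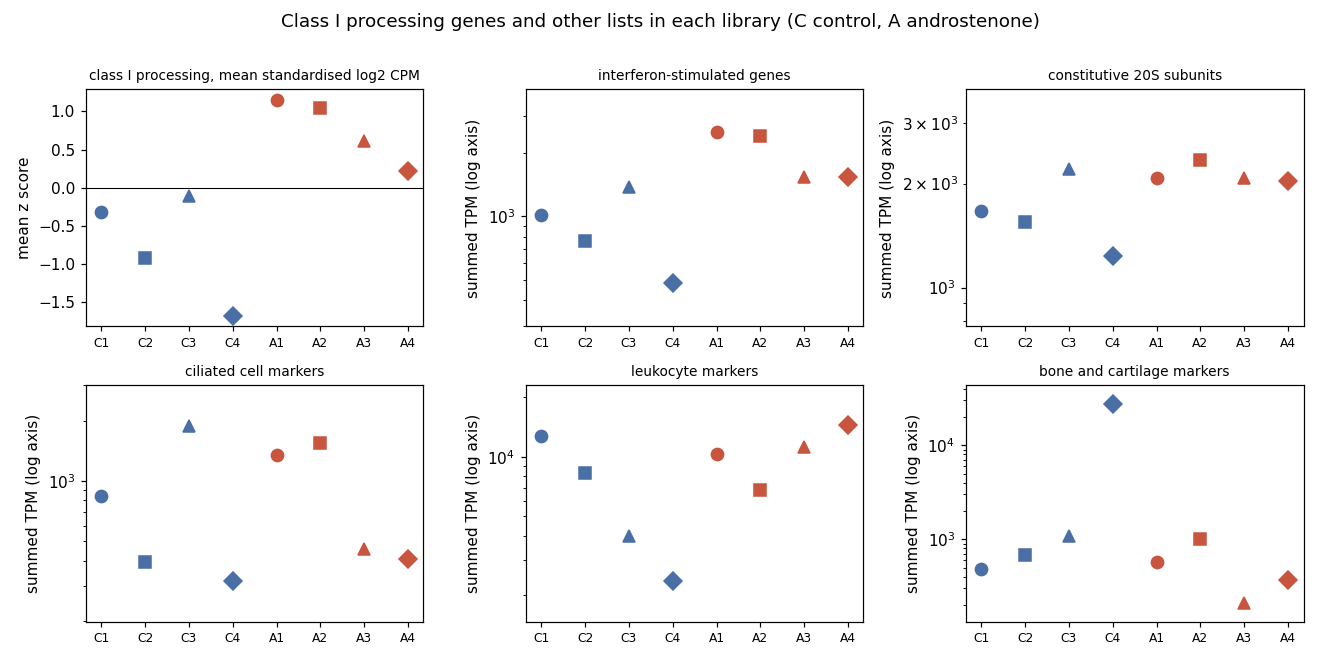
Mean standardised log2 CPM of the 10 class I processing genes (first panel, linear axis) and summed TPM (log axes) of the interferon-stimulated genes, the constitutive 20S subunits and 3 marker lists of other cell types in each of the 8 libraries, controls in blue and androstenone libraries in red. The interferon-stimulated sum is at least 1531 TPM in each androstenone library and at most 1370 TPM in each control, while the ciliated and leukocyte sums overlap between the groups and the bone sum is 27524 TPM in control 4.

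The direction of the difference held for each of the 10 genes in 29 of 29 alternative ways of computing it, while the number past the cutoff did not hold. Leaving out control 4, which had the highest bone marker sum, left 2 of 10 past the cutoff (TAP1 and PSMB9) and 8 of 10 with an unadjusted p below 0.05, at a median log2 fold change of 0.72. Leaving out control 1, the library with the fewest deposited counts, gave 4 and 8 with a median of 0.98. Without both, 1 of 10 passed the cutoff, PSMB9, and 7 of 10 had an unadjusted p below 0.05 with a median of 0.73. Without control 3 the number past the cutoff was 6. The count over all genes tested moved as well. In either direction 1368 passed in the main fit and 867 to 2414 with 1 library left out, with the highest number without control 3. The share of all genes at an unadjusted p below 0.05 in the fits with libraries left out is not given here. The counts of the 10 genes at that p in those fits therefore have no background.

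Since the sow of each library is not given, counts were also summed over every possible pairing of libraries into 2 sows per group, 9 pairings in all, so that the animal was the replicate. TAP2, TAPBP and PSMB10 had an unadjusted p below 0.05 in 9 of 9 pairings of that edgeR fit. PSMB9 did so in 8, TAP1, NLRC5 and PSME2 in 6, PSME1 in 4, PSMB8 in 2 and B2M in 0. The number of the 10 genes past the cutoff was between 1 and 7 depending on the pairing, and none had an adjusted p below 0.05 in any of them. Over all genes, 368 to 1696 passed the cutoff in either direction in these pairings. The share of all genes at an unadjusted p below 0.05 in each pairing is not given here, so the counts per gene have no background.

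**Figure D5:**
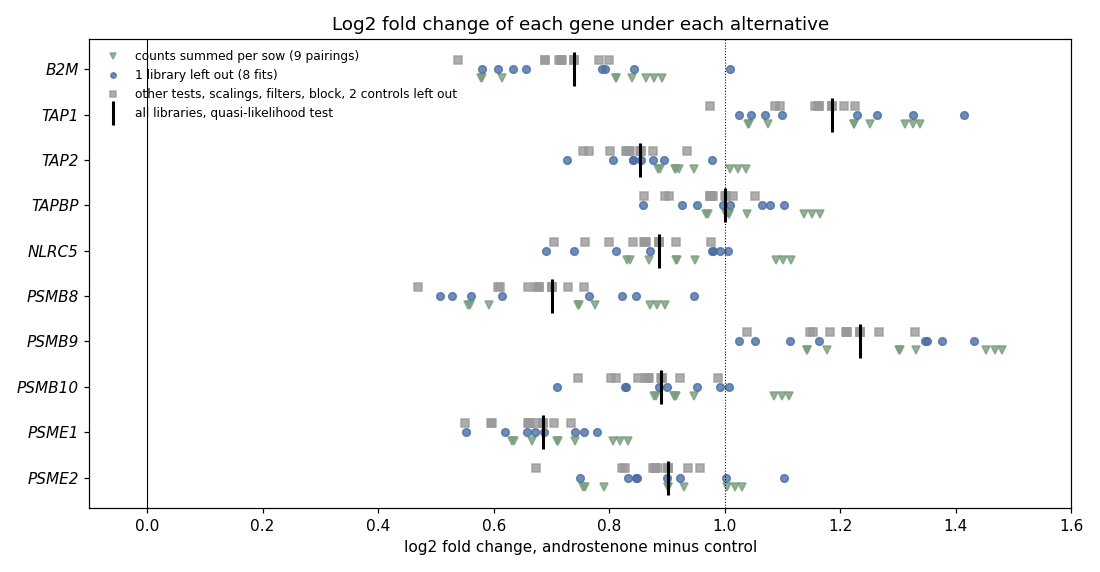
Log2 fold change of each of the 10 class I processing genes in the main edgeR fit and in the 29 alternatives (other tests, scalings and filters, libraries left out, counts summed per possible sow), with the main value as a black bar and a dotted line at 1. All values lie above 0, from 0.47 (PSMB8) to 1.48 (PSMB9), and the limit of 1 used in the cutoff runs through the values of most genes.

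The genes most like the 10 were sought among 13440 other named genes with a mean of at least 1 CPM, by Pearson's r of log2 CPM with the mean of the 10 scaled genes over the 8 libraries. The 10 nearest were ISG12(A) (r = 0.994), FUNDC1 (0.992), IRF1 (0.989), HSH2D (0.988), IFI6 (0.986), PELP1 (0.983), MDK (0.983), SSX2IP (0.982), TARS2 (0.982) and IFI44L (0.981). ISG12(A), IFI6 and IFI44L are known interferon-stimulated genes, and ISG12(A) went from a mean of 294 to 876 TPM. FUNDC1, a mitochondrial receptor for autophagy, and the growth factor MDK had log2 fold changes of 1.03 and 1.31. These r values describe 8 libraries that share their groups, scaling and sows, and are the highest of many.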

How the data were processed

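RNA-seq of OE from 4 sows gave 8 libraries in 2 groups. The submitters' processing notes name fastp 0.23.1, kallisto 0.48.0 and Sscrofa11.1. For each gene and library the authors deposited an estimated count, which is not normalized and need not be whole, and a TPM value, which corrects for transcript length and depth. For the step from transcripts to genes the method is not given in these sources.

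These estimates were made whole by rounding. The 21318 genes left with 1 count or more in sum were fitted in edgeR 4.0.16 (R 4.3.3, TMM scaling, treatment as sole term) and compared by the quasi-likelihood test, with Benjamini-Hochberg adjustment over all of them. The cutoff follows the study (unadjusted p below 0.05, log2 fold change of 1 or more in size). Ratios were of TPM, tested by a two-sided exact permutation test. Gene names came from a table that matched 15527 of 22516 identifiers, and coordinates from RefSeq by symbol. Alternatives used DESeq2 1.42.0, limma 3.58.1 on log2(TPM + 0.1) and log2(TPM + 1), other edgeR tests, scalings and filters, left-out libraries and counts summed per sow. The edgeR, DESeq2 and limma fits were tested on simulated data. Text names all 10 genes and, of each other list, those past the cutoff, the 3 most abundant and those in ratios, except 1 gene that is counted but not reported here. The members and lists were chosen with earlier results of these data known. Planned ratios to PSMB5 and PSMB6 and a search of promoter motifs were not made, since those rows and sequences were not found in the tables used here. Deposited counts summed to 4177968 in control 1 and at least 81579983 elsewhere, and limits stated from these sums cover counting error only.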

Additional observations from a re-analysis of the deposited data

Results flagged for a closer look

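In 2 ratios 1 control library was far from the other 3, among 42 groups of 4 libraries checked, where chance alone places about 1 in 20 apart. The TAP1 to TAP2 ratio of TPM was 2.43 in control 3 and between 1.47 and 1.58 in the other controls, so that the gap to the nearest made up 0.887 of the range of the group (limit 0.829). The PSME1 to PSME2 ratio was 1.65 in control 3 and between 2.04 and 2.11 in the other controls, where the gap made up 0.854 of the range. In both ratios control 3 lay within the range of the androstenone libraries, which was 1.68 to 2.77 for TAP1 to TAP2 and 1.44 to 1.87 for PSME1 to PSME2. Control 3 was also the library with the most ciliated cell marker signal, 1884 TPM, whose part in these ratios was not tested.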

How the results depend on the processing

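All 10 log2 fold changes stayed above 0 in the 29 alternatives. At the cutoff 1368 genes passed, and 727 and 321 did so in limma on log2(TPM + 0.1) and log2(TPM + 1), 881 without controls 1 and 4, and 867 to 2414 with 1 library left out, lowest without androstenone 1 and highest without control 3. Summed per sow, pairings gave 736, 368, 767, 733 and 853 genes in 5 cases and a number within 1.5 times the main one in the other 4. After adjustment, where the quasi-likelihood test called 0 genes, the likelihood ratio test called 200, the exact test 154, DESeq2 670 (with 7 of the 10 class I genes), library-size scaling 1 and limma on log2(TPM + 0.1) 2. Of the 10 genes, 3 passed the cutoff, against 2 to 6 with 1 library left out, 1 without controls 1 and 4, and 1 in 3 sow pairings and 7 in 3 others. The 8 at an unadjusted p below 0.05 were 3, 4 and 4 in 3 sow pairings, for which no share of all genes at that p is given. Without control 1 the log2 difference of PSMB10 to PSMB7 was 0.77 and that of PSMB9 to the 20S mean 0.89 (exact permutation p = 0.0286 each), and over the left-out libraries they ranged from 0.40 and from 0.52. Over the same leave-outs PSMB9 to TAP1 ranged from -0.025 (without control 4) to 0.12 and PSMB8 to TAP2 from -0.28 to 0.028 (without control 3). The cause of these shifts was not tested.

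Control and androstenone libraries carry the same replicate numbers. The groups are different sows, so the numbers cannot pair the samples by animal. Deviations of same-numbered libraries from their group means correlated at -0.05, -0.58, -0.67 and 0.20 for numbers 1 to 4, and no library correlated best with its own number. A replicate block gave 583 genes past the cutoff, and 3 of the 10 genes past it with 8 at an unadjusted p below 0.05, where the share of all genes at that p is not given. The deposited count sum limits control 1 most, where 3 counts correspond to 0.718 CPM, far below the level of each of the 10 genes.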
